A study of Homo sapiens with 4 samples.

Results

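The long arm of chromosome 18 around CBLN2 was examined as a set of 42 listed genes, out of 33538 genes in the count matrices. All 42 lie on 18q, with their midpoints between 45 and 75 Mb on GRCh38, from EPG5 at the start of the window to ZNF407 at its end. The members were selected on their values in RES-A, because genes of this stretch read lower there than in LNCaP, so every ratio of RES-A given below is a description of how the list was made and has no test. The list was not uniform in that respect, since CBLN2, the gene it is named after, was 9.47-fold higher in RES-A than in LNCaP. A mean over the 4 libraries of at least 10 CPM (UMI counts scaled to a library total of 1000000) was required to call a gene measured. This left 31 of the 42 members, while EPG5, CTIF, SMAD7, MYO5B, TCF4, WDR7, ZNF532, PHLPP1, RTTN, SOCS6 and ZNF407 fell under that limit.

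The genes of this stretch have no single function and share mainly their position. CBLN2 encodes a secreted cerebellin that helps to organise synapses, and its neighbour NETO1 encodes an auxiliary subunit of glutamate receptors. SMAD2 and SMAD4 encode effectors that carry signals of transforming growth factor beta (TGF-beta) and activin receptors to the nucleus, SMAD7 their inhibitor, and NEDD4L a ubiquitin ligase that can act on receptor-activated SMAD proteins. Many of the others serve the secretory pathway or mitochondria. Loss of 18q is known from several epithelial cancers, with SMAD4 among the genes studied there. DNA copy number was not measured here.

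Single-cell RNA-seq (scRNA-seq) was run on LNCaP, an androgen-sensitive line from a human prostate cancer metastasis, and on derivatives of it. Parental LNCaP cells were kept for 48 h in 0.1% DMSO, and LNCaP-ENZ48 is the same line after 48 h with 10 µM enzalutamide (ENZ), an antiandrogen given against prostate cancer. RES-A was derived from LNCaP by passage in rising concentrations of ENZ and RES-B by continuous exposure to RD-162, a related compound, and both resistant lines were maintained with 10 µM ENZ. Each group was 1 library of sorted living cells, and each resistant line is 1 line, so line, drug history and library cannot be told apart.

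After filtering, 1782 to 4569 cells and 50208831 to 60838227 unique molecular identifiers (UMIs) remained per library. Kept LNCaP cells were the deepest, with a median of 27079.5 UMIs against 12138 to 13676 in the other libraries. Between 2 and 9 kept cell barcodes were shared by any pair of libraries. The 7 prostate luminal markers shown here (KLK3, KLK2, TMPRSS2, FOLH1, KRT8, KRT18 and HOXB13) were detected in every library, with 4 of them at 10 CPM or more in RES-A and 7 in each of the others, and with summed levels from 1192 CPM in RES-A to 2224 CPM in LNCaP. Marker lists of basal epithelium, leukocytes, endothelium and fibroblasts summed to at most 3.70 CPM each, and KRT5, TP63, PTPRC, CD3E, CDH5 and COL1A2 were at 0 in all 4 libraries.

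To describe the stretch as a whole, the UMIs of each gene were summed over the cells of a library and ratios of CPM were taken on the log2 scale, with an exact 95% interval that covers counting error only. A gene was counted as lower or higher when its log2 ratio was beyond 0.32 in that direction. In RES-A against LNCaP, the ratio the members were chosen by, 20 of the 31 measured members were lower and 2 were higher, with a median log2 ratio of -0.60. Over all 7460 measured genes 23.2% were lower and 25.0% higher, with a median of 0.02. The 31 members summed to 1969 CPM in LNCaP, 1766 CPM in LNCaP-ENZ48 and 1404 CPM in RES-A, beside 1990 CPM in RES-B. RES-A held the lowest level of the 4 libraries for 23 of the 31 members (74.2%), beside 28.2% of all measured genes. RES-B held the highest for 16 (51.6%), beside 39.8% of all measured genes.

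In LNCaP-ENZ48 and RES-B the members as a group were nearer to LNCaP. After 48 h of ENZ, 4 members were lower and 2 higher than in LNCaP, a share near that of all measured genes, of which 13% were lower and 4.25% higher. The median log2 ratio of the members after 48 h was -0.14, beside -0.07 for all genes. Among cells of 16000 to 25000 UMIs, the range that the cell limits of all 4 libraries share, the members' share of lower genes went from 12.9% to 29.0% (9 of 31) and that of all measured genes from 13% to 16%, while the medians stayed at -0.14 and -0.07. In RES-B against LNCaP, 8 members (25.8%) were lower and 7 (22.6%) higher, beside 17.5% lower and 30.5% higher over all genes, and the median was 0.06 beside 0.11, a sign that turned to -0.05 when the ratios were centred on all genes. RES-B set against RES-A gave 23 members higher and 2 lower with a median of 0.55, where 27.8% of all genes were higher and 14.4% lower. RES-A set against LNCaP-ENZ48, a library of like depth, gave 17 members lower and 3 higher with a median of -0.37, where 18.1% of all genes were lower and 30.7% higher. These 5 comparisons share libraries, and those that hold RES-A carry the values by which the list was made.

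**Figure D1:**
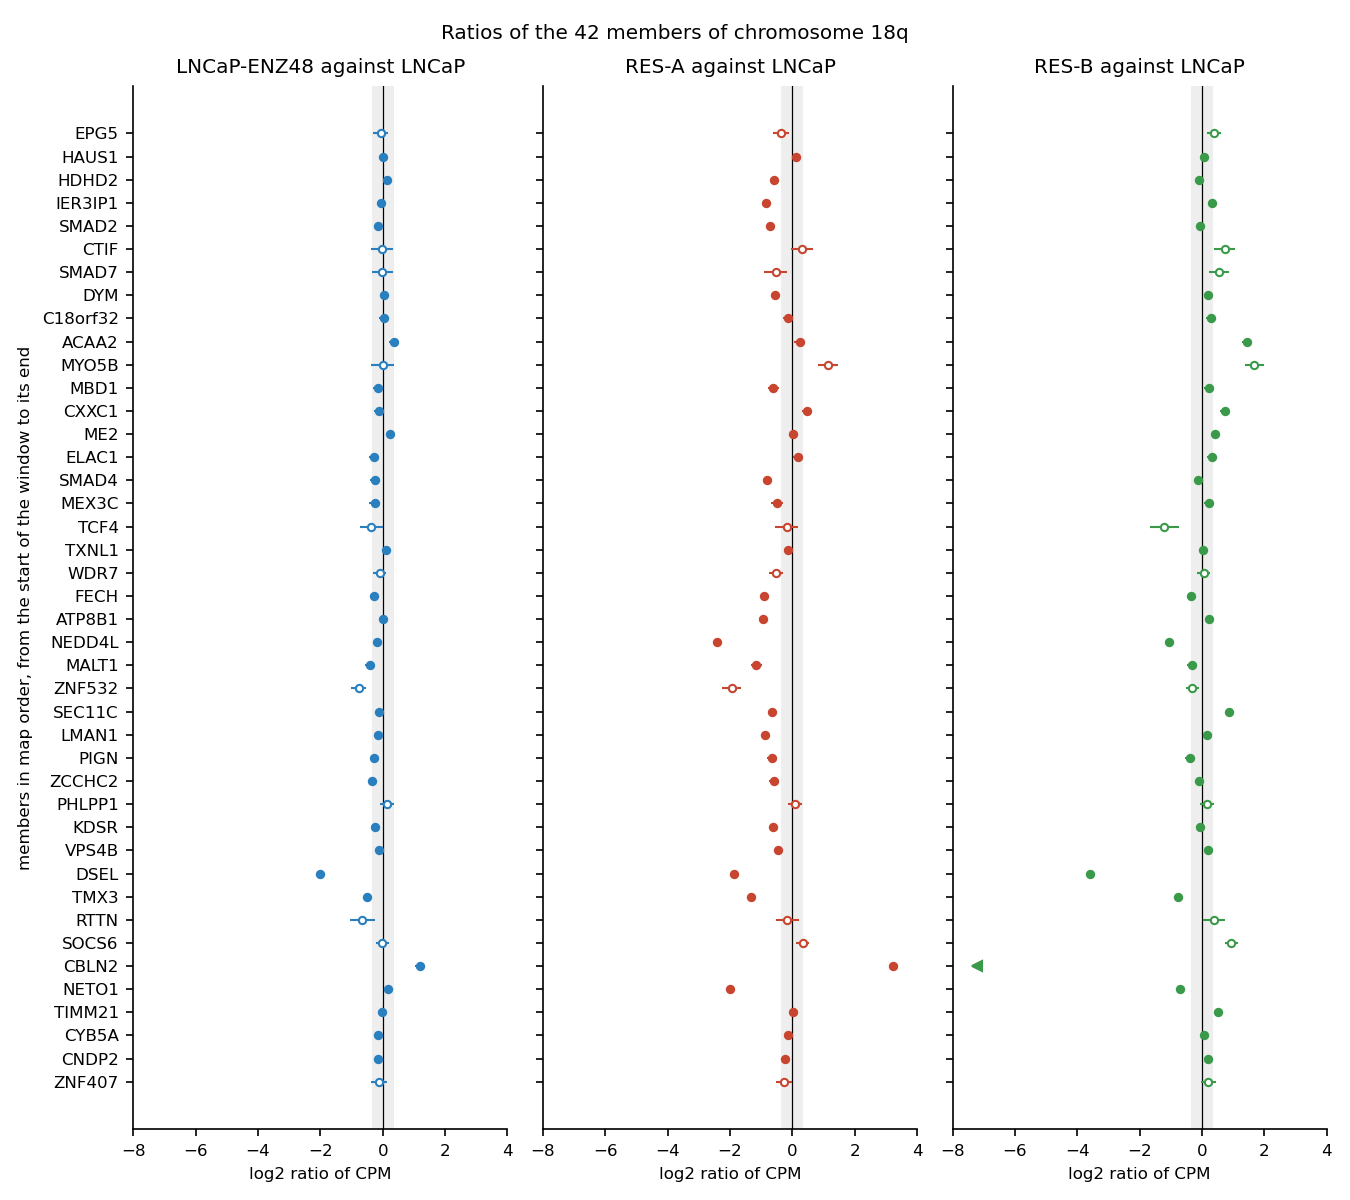
Log2 ratios of CPM for the 42 members in map order, with 1 panel for each comparison with LNCaP. Filled points are measured members and open points those under 10 CPM, lines are exact 95% intervals of counting error, the grey band marks log2 ratios within 0.32 of 0, and the triangle for CBLN2 in RES-B is a bound set by a floor of 3 UMIs. Most RES-A points lie left of the band, while in RES-B 8 measured members lie below it and 7 above.

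CBLN2 and NETO1 lie side by side, 103.8 kb apart and both on the minus strand, and their levels went separate ways. The level of CBLN2 (chr18:72536680-72638521) was 8.48 CPM in LNCaP, 19.5 CPM in LNCaP-ENZ48, 80.3 CPM in RES-A, and no UMI came from RES-B. It was thus higher after 48 h of ENZ and highest in RES-A, while all 4061 RES-B cells lacked it. The log2 ratio to LNCaP was 1.20 (interval 1.04 to 1.36) in LNCaP-ENZ48 and 3.24 (3.10 to 3.39) in RES-A. With 3 UMIs as the floor of the library, RES-B was at least 149-fold lower than LNCaP and at least 1407-fold below RES-A, and the upper ends of the exact 95% intervals of these log2 ratios were less far out, at -6.91 and -10.16. Among cells of 16000 to 25000 UMIs alone the ratios of CBLN2 to LNCaP were smaller, at 0.61 in LNCaP-ENZ48, 2.50 in RES-A and, at the same floor, -5.96 in RES-B.

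NETO1 (chr18:72742314-72868146) stood at 106 CPM in LNCaP, 119 CPM in LNCaP-ENZ48 and 26.3 CPM in RES-A, with 64.8 CPM in RES-B. Both resistant lines were lower than the parental line, with log2 ratios of -2.02 (-2.10 to -1.93) in RES-A and -0.71 (-0.78 to -0.65) in RES-B. After 48 h the ratio was 0.17 (0.12 to 0.22), inside the band of 0.32, and it was -0.33 among cells of 16000 to 25000 UMIs, so its direction there rests on which cells are counted. AC091138.1, an unlisted long non-coding RNA gene beside the start of NETO1 and on the opposite strand, had 18 CPM in LNCaP, 30.6 CPM in LNCaP-ENZ48 and 4.74 CPM in RES-A, beside 9.49 CPM in RES-B. Its order over the 4 libraries was that of NETO1.

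Another member of this distal part with a large ratio in RES-A was DSEL (chr18:67506587-67516720), which encodes a protein related to dermatan sulfate epimerase. It stood at 136 CPM in LNCaP, 33.6 CPM in LNCaP-ENZ48 and 37.0 CPM in RES-A, against 11.4 CPM in RES-B. All 3 ENZ-exposed libraries were below LNCaP, and 48 h of ENZ already gave a log2 ratio of -2.02 (-2.09 to -1.95). The ratio was -1.88 (-1.95 to -1.81) in RES-A, or -2.50 among cells of 16000 to 25000 UMIs, and -3.58 (-3.70 to -3.46) in RES-B. DSEL was the member with the lowest ratio after 48 h, and CBLN2 the one with the highest.

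The promoters of these 3 members are shown because their levels differed most between libraries in the distal part of the window and in separate ways. They run from 250 bases before to 50 bases from a transcript start, on the minus strand, as RefSeq gives them on GRCh38.p14, and capitals mark CG pairs. CBLN2 (chr18:72544293-72544592) and DSEL (chr18:67516671-67516970) have 1 start each in that table, and of the 3 starts of NETO1 the one farthest upstream (chr18:72867938-72868237) is printed. The windows of DSEL and NETO1 cover the upstream ends of the gene spans given above. That of CBLN2 lies inside the span of its gene, far from the upstream end, so it is the promoter of an inner start.
CBLN2: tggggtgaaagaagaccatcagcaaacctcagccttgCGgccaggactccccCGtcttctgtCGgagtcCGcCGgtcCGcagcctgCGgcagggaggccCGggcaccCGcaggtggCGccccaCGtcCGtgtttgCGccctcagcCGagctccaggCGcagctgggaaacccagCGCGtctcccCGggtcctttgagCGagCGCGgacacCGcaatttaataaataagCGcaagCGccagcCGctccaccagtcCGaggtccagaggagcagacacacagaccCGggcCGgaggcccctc
NETO1: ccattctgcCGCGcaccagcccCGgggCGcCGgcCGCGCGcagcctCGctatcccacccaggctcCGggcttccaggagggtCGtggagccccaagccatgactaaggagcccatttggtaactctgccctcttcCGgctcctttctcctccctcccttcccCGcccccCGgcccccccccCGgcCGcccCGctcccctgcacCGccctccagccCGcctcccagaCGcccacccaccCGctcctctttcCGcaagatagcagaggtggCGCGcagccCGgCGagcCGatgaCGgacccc
DSEL: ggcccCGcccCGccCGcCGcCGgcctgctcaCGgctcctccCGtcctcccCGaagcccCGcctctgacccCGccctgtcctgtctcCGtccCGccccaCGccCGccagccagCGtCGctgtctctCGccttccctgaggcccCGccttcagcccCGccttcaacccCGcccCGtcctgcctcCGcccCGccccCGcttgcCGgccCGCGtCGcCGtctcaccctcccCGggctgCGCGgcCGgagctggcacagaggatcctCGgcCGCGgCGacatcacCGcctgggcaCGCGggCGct
CBLN2 and NETO1 hold 28 CG pairs each in these windows and DSEL 41, where the median of all 35116 promoters was 14. The table matched 37 of the 42 members with 64 promoters, whose median was 25 CG pairs. No methylation or binding was measured in these samples.

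**Figure D2:**
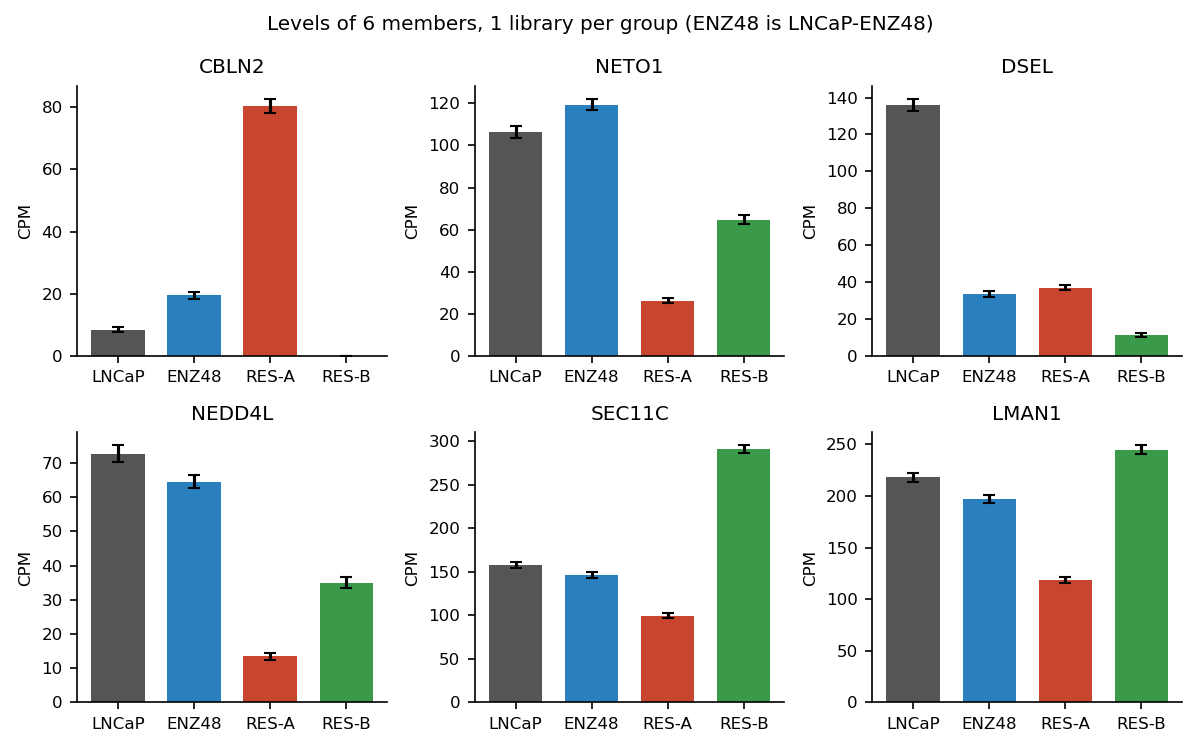
Levels in CPM (y axes start at 0) of CBLN2, NETO1, DSEL, NEDD4L, SEC11C and LMAN1 in the 4 libraries, 1 bar per library, with exact Poisson 95% intervals of counting error. CBLN2 is highest in RES-A at 80.3 CPM and at 0 in RES-B, DSEL is low in all ENZ-exposed libraries, and the other 4 genes are lowest in RES-A.

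Cells with at least 1 UMI of CBLN2 followed the summed level. With every cell thinned to 5000 UMIs, they were 3.25% of LNCaP cells (exact binomial interval 2.48 to 4.19), 7.35% of LNCaP-ENZ48 cells (6.59 to 8.17) and 30.0% of RES-A cells (28.7 to 31.4). RES-B had 0 of 4061 cells, thinned or not, which allows a share of cells with a UMI of up to 0.0739% at 3 counts, or 0.0908% as the upper end of the exact binomial interval. Without thinning the shares were 11.4%, 14.6%, 50.3% and 0, at median depths of 27079.5, 13676, 12138 and 12285 UMIs. NETO1 was found in 35.9% of thinned LNCaP cells and 40.2% after 48 h, against 12.6% of RES-A cells, with 25.8% for RES-B, beside 76.5%, 64.9%, 26.0% and 47.5% unthinned.

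SMAD2, SMAD4 and SMAD7 were lower in RES-A, and their ratios in RES-B were not alike. SMAD2, a receptor-activated SMAD, was at 39.3 CPM in LNCaP, 35.8 CPM in LNCaP-ENZ48 and 23.9 CPM in RES-A, with 37.8 CPM in RES-B. SMAD4, the partner common to all receptor-activated SMAD proteins, was at 16.7, 14.0, 9.59 and 15.4 CPM in the same order. Both had their lowest level in RES-A, with log2 ratios to LNCaP of -0.72 (-0.82 to -0.62) for SMAD2 and -0.80 (-0.96 to -0.64) for SMAD4, and in RES-B the ratios were -0.06 and -0.12, with intervals that include 0. NEDD4L was at 72.8 CPM in LNCaP, 64.6 CPM in LNCaP-ENZ48 and 13.5 CPM in RES-A, beside 34.9 CPM in RES-B. It was lower in both resistant lines, with log2 ratios of -2.43 (-2.55 to -2.32) and -1.06 (-1.14 to -0.98), and the RES-A ratio is the lowest of all 42 members. SMAD7, the inhibitory SMAD, was under the limit with 2.83, 2.81, 1.95 and 4.15 CPM. Its log2 ratio was -0.53 (-0.90 to -0.17) in RES-A and 0.55 (0.24 to 0.87) in RES-B, the latter 0.06 among cells of 16000 to 25000 UMIs.

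Outside 18q the listed genes of the same pathway went in both directions, as all measured genes did. Of 30 receptors, SMAD proteins, regulators and targets on other chromosomes, 15 were measured. In RES-A 5 (33.3%) were lower and 5 (33.3%) higher than in LNCaP with a median of -0.10, beside 23.2% and 25.0% of all measured genes. In RES-B 4 were lower and 6 higher (median 0.19), and after 48 h of ENZ 2 were lower and 2 higher (median -0.14). SMAD9, an SMAD of the bone morphogenetic protein (BMP) branch, had the lowest ratio in both resistant lines, with 19.7 CPM in LNCaP, 12.3 CPM in LNCaP-ENZ48 and 4.50 CPM in RES-A, against 7.17 CPM in RES-B. BAMBI, a decoy receptor, had the highest, with 38 CPM in LNCaP, then 66.2, 186 and 277 CPM. ID2, a target of BMP signals, was at 4.20, 4.14, 19.5 and 15.1 CPM, also higher in both resistant lines. PMEPA1, a target and inhibitor of TGF-beta signals that androgens also induce, was at 51.3, 29.8, 28.5 and 32.5 CPM, and so was below LNCaP in every ENZ-exposed library. ID1 went in opposite directions, with 9.52, 9.47, 16.6 and 5.52 CPM, and its RES-B ratio of -0.79 was 0.24 among cells of 16000 to 25000 UMIs.

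Other signalling members were MALT1, PHLPP1 and SOCS6. MALT1, a protease of the nuclear factor kappa B pathway, was at 15 CPM in LNCaP, 11.3 CPM in LNCaP-ENZ48 and 6.75 CPM in RES-A, with 12.0 CPM in RES-B, and was counted as lower in all 3 comparisons with LNCaP. Its log2 ratios were -0.41 after 48 h, -1.15 (-1.33 to -0.98) in RES-A and, only just past the limit, -0.32 in RES-B. PHLPP1, a phosphatase that acts on AKT, stayed between 5.92 and 6.60 CPM in every library. SOCS6, a member of the suppressor of cytokine signalling family, was at 6.29, 6.25, 7.92 and 12.1 CPM, highest in RES-B.

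The secretory pathway was the largest role group, with 11 measured members, of which 9 (81.8%) were lower in RES-A and none was higher. Of all measured members 64.5% were lower and 6.45% higher in RES-A, beside 23.2% and 25.0% of all measured genes. The list was made by these values, so the count within a role group is a description and no result about the pathway. LMAN1, a cargo receptor between the endoplasmic reticulum (ER) and the Golgi, was at 218 CPM in LNCaP, 197 CPM in LNCaP-ENZ48 and 119 CPM in RES-A, beside 245 CPM in RES-B. SEC11C, a catalytic subunit of the signal peptidase, was at 158, 146, 99.7 and 291 CPM. IER3IP1, a small ER protein, was at 52.8, 50.5, 29.6 and 66.3 CPM. These 3 genes shared an order, with RES-A lowest and RES-B highest. Their RES-A ratios were -0.87 (-0.92 to -0.83) for LMAN1, -0.66 (-0.71 to -0.62) for SEC11C and -0.84 (-0.92 to -0.75) for IER3IP1, and SEC11C was 2.91-fold above RES-A in RES-B.

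TMX3, a thioredoxin-related protein of the ER membrane, was instead lower in every comparison with LNCaP. Its levels were 33.0 CPM in LNCaP, 23.4 CPM in LNCaP-ENZ48 and 13.1 CPM in RES-A, against 19.3 CPM in RES-B, with log2 ratios of -0.49, -1.33 and -0.77. ATP8B1, a phospholipid flippase, was lower in RES-A alone among these libraries, with 21.2, 21.5, 11.1 and 24.6 CPM. PIGN, an enzyme of glycosylphosphatidylinositol anchor synthesis, was at 16.1, 13.4, 10.2 and 12.4 CPM, DYM, a Golgi protein, at 23.0, 23.8, 15.7 and 26.2 CPM, and VPS4B, an ATPase of the endosomal sorting machinery, at 40.6, 37.3, 29.4 and 46.2 CPM. All 3 had their lowest level in RES-A. TXNL1, a thioredoxin-like protein of the proteasome, stayed between 146 and 172 CPM, and C18orf32 between 11.5 and 15.2 CPM, and both were inside the band of 0.32 in RES-A. C18orf32 overlaps RPL17-C18orf32, a read-through gene on the same strand with a mean of 0.104 CPM. How reads of the shared bases were counted was not examined.

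The 3 secretory members under 10 CPM differed among themselves. MYO5B, a motor of recycling vesicles, was at 2.41 CPM in LNCaP, 2.40 CPM in LNCaP-ENZ48 and 5.28 CPM in RES-A, with 7.74 CPM in RES-B. Both resistant lines were higher than LNCaP, by 1.13 (0.82 to 1.45) and 1.68 (1.39 to 1.99) on the log2 scale. EPG5, needed for late steps of autophagy, was at 5.76, 5.51, 4.46 and 7.48 CPM, and WDR7, a partner of the vacuolar proton pump, at 7.19, 6.74, 5.02 and 7.48 CPM.

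Among the 8 members of mitochondria and metabolism, 3 (37.5%) were lower in RES-A and none was higher. Over all measured genes 23.2% were lower and 25.0% higher. FECH, which inserts iron into heme, was at 75 CPM in LNCaP, 62.3 CPM in LNCaP-ENZ48 and 39.9 CPM in RES-A, beside 58.3 CPM in RES-B. KDSR, an enzyme of sphingolipid synthesis, was at 33.4, 28.4, 22.0 and 31.8 CPM, and HDHD2, a predicted hydrolase, at 22.7, 25.1, 14.9 and 21.0 CPM. All 3 were lowest in RES-A, and the RES-B ratio of FECH was -0.36, or 0.02 among cells of 16000 to 25000 UMIs.

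The other 5 metabolic members stayed inside that band in RES-A. ACAA2, a thiolase of fatty acid oxidation, was at 10.5 CPM in LNCaP, 13.6 CPM in LNCaP-ENZ48 and 12.3 CPM in RES-A, against 28.6 CPM in RES-B, so that RES-B stood apart with a log2 ratio of 1.44 (1.30 to 1.59). ME2, the mitochondrial malic enzyme, was at 38.7, 45.9, 39.4 and 51.9 CPM, and TIMM21, a part of the import machinery of the inner membrane, at 17.3, 17, 17.5 and 24.7 CPM. Both were highest in RES-B. CYB5A, the electron carrier cytochrome b5, was at 457, 414, 411 and 477 CPM, and CNDP2, a dipeptidase, at 88.3, 78.7, 75 and 101 CPM.

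In the chromatin, transcription and RNA group 5 of 9 members were measured. Of these 3 were lower and 1 was higher in RES-A, beside 23.2% and 25.0% of all measured genes. MBD1, which binds methylated CpG, and CXXC1, which binds unmethylated CpG as part of a histone methyltransferase complex, are neighbours that differed in direction. MBD1 was at 11.5 CPM in LNCaP, 10.4 CPM in LNCaP-ENZ48 and 7.50 CPM in RES-A, with 13.5 CPM in RES-B, and CXXC1 at 13.1, 12.1, 18 and 21.7 CPM. The RES-A log2 ratios were -0.61 (-0.79 to -0.43) for MBD1 and 0.46 (0.31 to 0.60) for CXXC1, whose intervals are far apart. MEX3C, an RNA-binding ubiquitin ligase, was at 11.6, 9.71, 8.27 and 13.5 CPM, ZCCHC2, a zinc finger protein, at 20.2, 16.1, 13.3 and 19.1 CPM, and ELAC1, a transfer RNA processing enzyme, at 11.8, 9.63, 13.2 and 14.7 CPM.

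The members of this group under the limit were TCF4, ZNF532, ZNF407 and CTIF. ZNF532, a zinc finger protein, was at 7.85 CPM in LNCaP, 4.59 CPM in LNCaP-ENZ48 and 2.04 CPM in RES-A, beside 6.32 CPM in RES-B, with a RES-A log2 ratio of -1.94 (-2.25 to -1.64). TCF4, a basic helix-loop-helix factor, was between 1.10 CPM in RES-B and 2.55 CPM in LNCaP, ZNF407 between 4.17 and 5.76 CPM, and CTIF, a translation factor, between 2.32 and 3.90 CPM. Of the 11 members under 10 CPM, 4 were lower and 2 higher in RES-A, and 1 was lower and 6 higher in RES-B. Over all measured genes 23.2% were lower and 25.0% higher in RES-A, and 17.5% and 30.5% in RES-B. Those shares are of genes of at least 10 CPM, so they are no like measure for these 11. The centrosomal members showed no large change in RES-A, since HAUS1, a subunit of augmin, stayed between 27.2 and 29.3 CPM, and RTTN, a centriole protein, was at 2.51, 1.59, 2.23 and 3.27 CPM.

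The rest of the stretch was also described. The stretch itself was picked for its lower values in RES-A, so its unlisted genes cannot show whether low values were particular to the list. Of the 234 genes of the window in the matrices 43 were measured, and 12 of these were not listed. In RES-A 6 of these 12 were lower and 1 was higher, where 23.2% of all measured genes were lower and 25.0% higher. The median log2 ratio of the 12 was -0.30, beside -0.60 for the members. The lowest were AC091138.1 (-1.93), PMAIP1, a target of p53 that promotes cell death (-1.06), and C18orf25 (-0.61). The highest were ONECUT2, a transcription factor, at 0.63, MBD2 at 0.04 and KIAA1468 at -0.08. PMAIP1 was also lower in RES-B, with 41.3 CPM in LNCaP, 25.9 CPM in LNCaP-ENZ48 and 19.8 CPM in RES-A, against 17.4 CPM in RES-B.

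The window had no clear edge. Just inside its start, ATP5F1A and HAUS1 had RES-A ratios of -0.10 and 0.10, and just outside it PIK3C3 was at 0.36 and SYT4, a synaptotagmin, at -6.17, from 80.2 CPM in LNCaP to 1.12 CPM in RES-A. Just inside its end, CNDP2 and LINC00909 were at -0.24 and -0.16, and just outside it ZADH2 and TSHZ1 were at -0.13 and -0.22. Within the window the median in RES-A was -0.46 over 19 genes from 45 to 55 Mb, -0.66 over 15 genes from 55 to 65 Mb and -0.24 over 9 genes from 65 to 75 Mb. The running median of 15 measured genes was lowest at PMAIP1 (-0.87) and highest at ME2 (-0.15).

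The low level also reached beyond the window in both directions. On the short arm 17 of 30 measured genes (56.7%) were lower in RES-A and 1 was higher, with a median of -0.37. On 18q before the window 18 of 32 (56.25%) were lower and 6 (18.75%) higher, also with a median of -0.37. On 18q after it 4 of 9 (44.4%) were lower and none was higher, with a median of -0.30. Over all measured genes 23.2% were lower and 25.0% higher. In RES-B the medians of these 3 stretches were -0.04, 0.06 and -0.09. No test was made of the difference between the window and these stretches, which hold genes of the same 4 libraries.

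**Figure D3:**
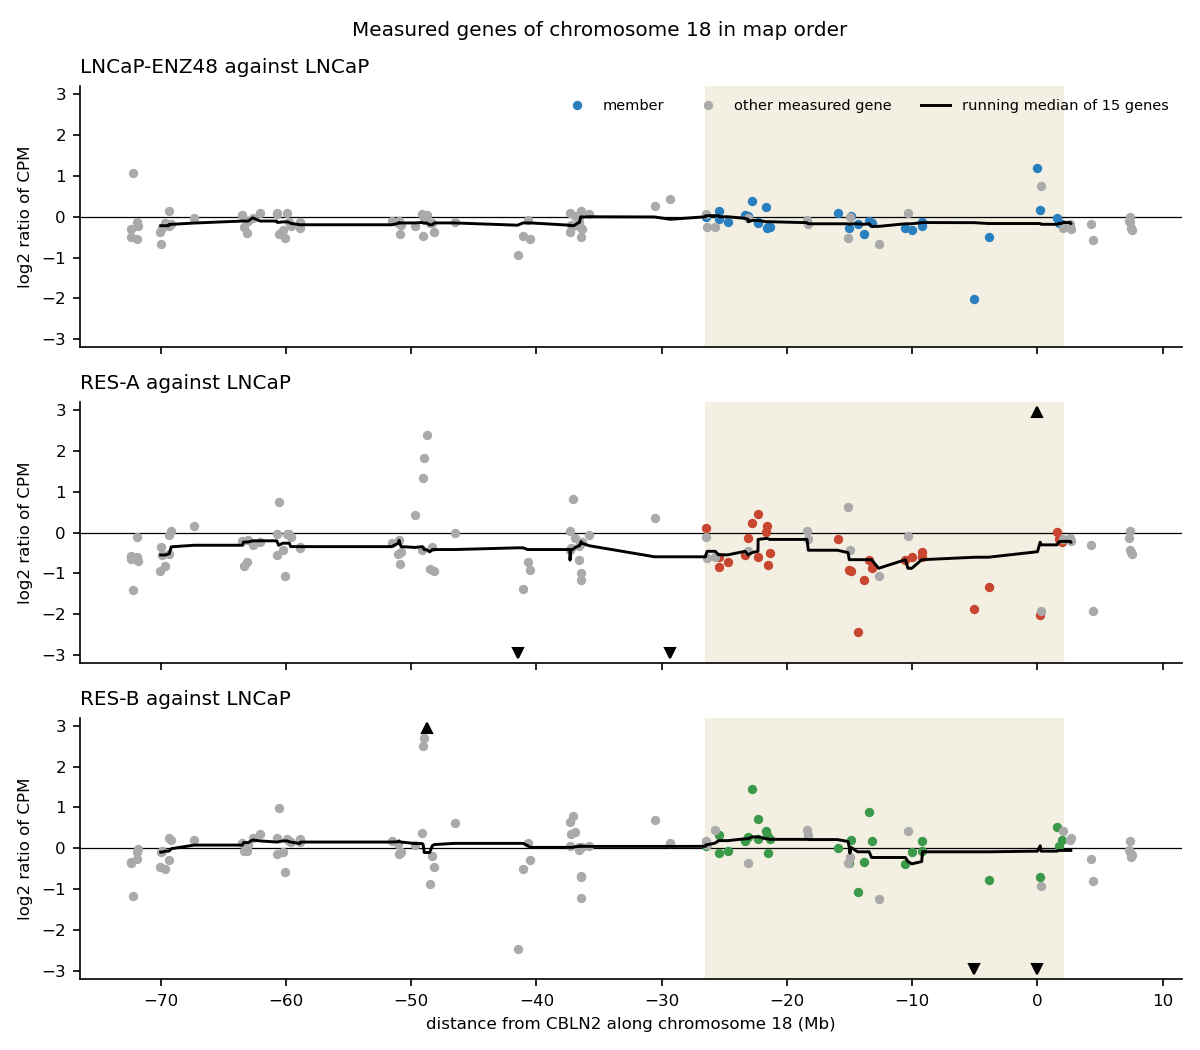
Log2 ratios of CPM against distance from CBLN2 in Mb for the 114 measured genes of chromosome 18, with 1 panel per comparison with LNCaP. Coloured points are members, grey points other measured genes, the line is the running median of 15 genes, the shaded band is the window and black triangles are genes past the ends of the axis. In RES-A the line stays below 0 from the start of the chromosome to its end, while it stays between -0.24 and 0.03 in LNCaP-ENZ48 and between -0.38 and 0.28 in RES-B.

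Chromosome 18 was not the only one with a low median in RES-A. Of 41 chromosome arms compared, 18q ranked 3 from the lowest with a median of -0.43 over 84 genes, after 9p (-0.51) and 15q (-0.46), and 13q (-0.38), 18p (-0.37) and 9q (-0.34) came next. In RES-B the median of 18q was 0.06, rank 13, and after 48 h of ENZ it was -0.14, rank 4. Of 102 tiles of 30 Mb over all chromosomes, those of chromosome 18 included, 1 had a lower median in RES-A than the window, whose median was -0.55. Arms and tiles with few measured genes were left out. The window was picked for its low values in RES-A and 18q holds all the members. Their low places in RES-A thus follow in part from that choice and are a description only.

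**Figure D4:**
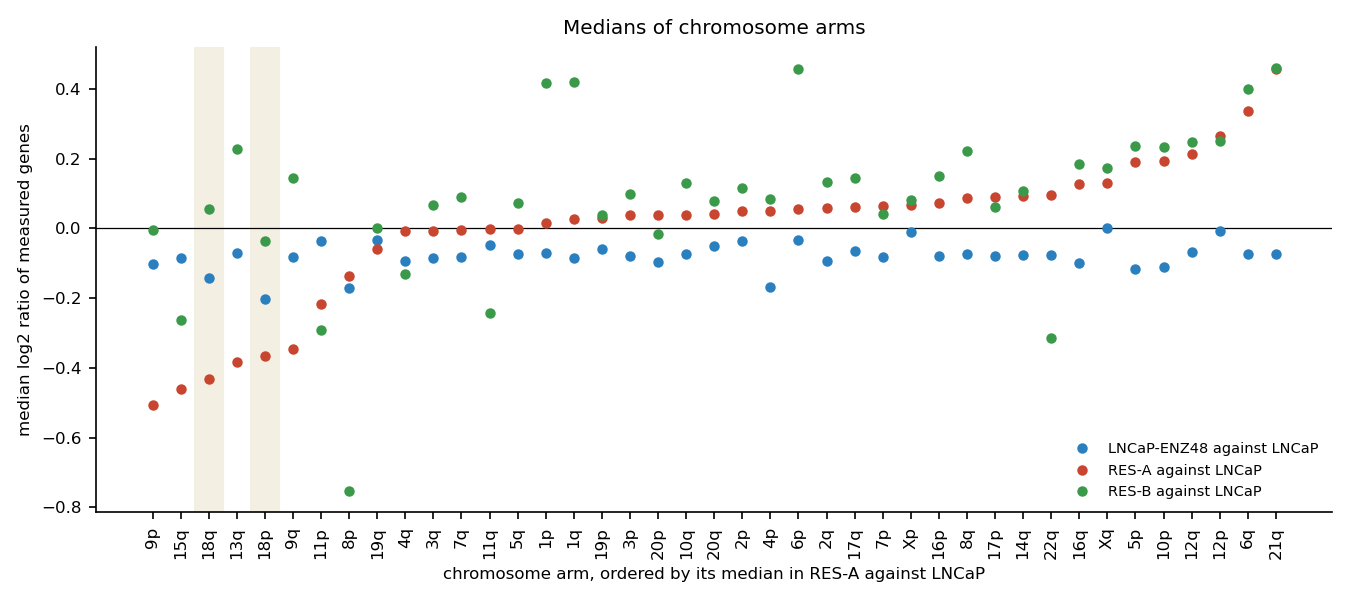
Median log2 ratio of the measured genes of each of 41 chromosome arms, ordered by RES-A against LNCaP, with 1 colour per comparison with LNCaP and both arms of chromosome 18 shaded. RES-A medians of 9p, 15q, 18q, 13q, 18p and 9q lie between -0.51 and -0.34, and the RES-B median of 18q is 0.06.

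To describe how the lower sum in RES-A was spread over cells, UMIs of the 41 members other than CBLN2 were counted in cells thinned to 5000 UMIs. Their mean share was 0.201% of UMIs in LNCaP and 0.179% after 48 h of ENZ, against 0.137% in RES-A, while RES-B had 0.205%. The median cell held 10, 9, 7 and 10 such UMIs. Of RES-A cells, 16.5% reached the LNCaP median of 10 UMIs, beside 54.2% of LNCaP cells, 40.1% of LNCaP-ENZ48 cells and 54.7% of RES-B cells. The SD over RES-A cells was 1.04 times that of counting alone, beside 1.11 in LNCaP, 1.06 in LNCaP-ENZ48 and 1.15 in RES-B. The RES-A cells had a single peak. Without thinning this ratio was 1.08 in RES-A, beside 1.54 in LNCaP, 1.15 in LNCaP-ENZ48 and 1.31 in RES-B. At 7 UMIs in the median RES-A cell, counting error makes up most of the spread of thinned cells. Neither the ratio nor the peak can therefore tell a mix of cells from an even shift. Cells are not replicates, and these values describe 1 library each.

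**Figure D5:**
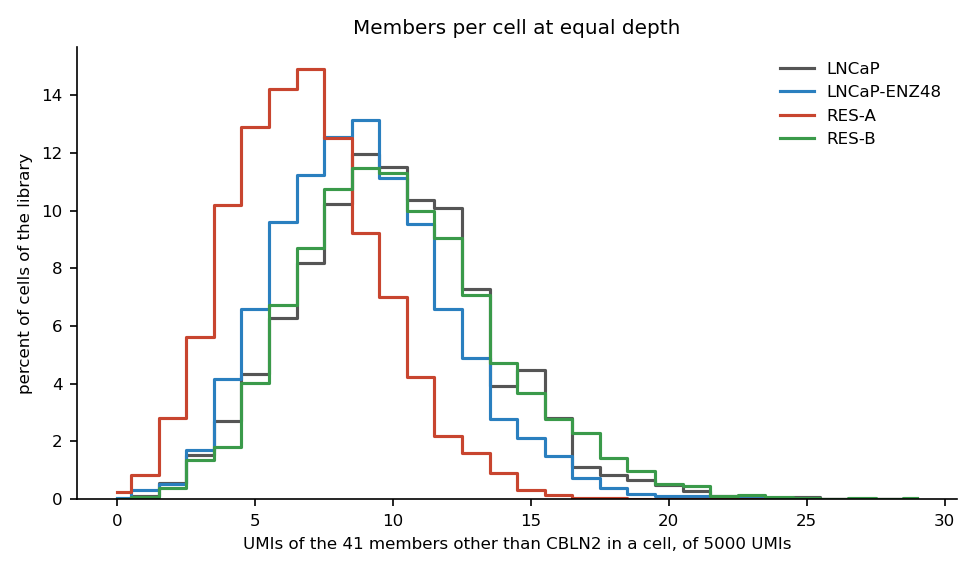
Percent of cells of each library (y axis) by the number of UMIs from the 41 members other than CBLN2 among 5000 UMIs of a cell (x axis), with 1 line per library. The RES-A line peaks at 7 UMIs as a single peak, to the left of the other 3 lines, and all 4 lines overlap.

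Cells with and without CBLN2 were also compared for their share from the rest of the stretch. In RES-A those with a CBLN2 UMI after thinning (1371 cells) had 0.140% of their UMIs from the other 41 members (0.137 to 0.142), and the 3198 cells without one had 0.136% (0.134 to 0.138), and both were under the 0.201% of LNCaP. In LNCaP-ENZ48 the 317 cells with one had 0.189% (0.183 to 0.196) and the 3998 without 0.178% (0.176 to 0.180). In LNCaP the 58 cells with one had 0.203% (0.187 to 0.220) and the rest 0.201% (0.198 to 0.204). These intervals cover counting error of UMIs pooled over cells and leave out variation between cells, so the differences were not tested. Cycling cells were also set apart, as those with a UMI of any of 6 cycling genes. RES-A cells without such a UMI had a share of 0.138% and those with one 0.136%, beside 0.207% and 0.189% in LNCaP.

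Few genes related to CBLN2 and NETO1 were measured in these libraries. Of 8 related genes, among them CBLN1, CBLN3, CBLN4, NETO2 and GRIK2, NETO2 alone was measured, with 31.4 CPM in LNCaP, 30.8 CPM in LNCaP-ENZ48 and 59.1 CPM in RES-A, beside 41 CPM in RES-B. NETO2, the paralogue of NETO1, was thus highest in RES-A, where NETO1 was lowest. CBLN1 and CBLN4 were at 0 in all 4 libraries.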

How the data were processed

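Sorted cells of the 4 groups were profiled with a 10x Genomics droplet assay, and the authors deposited raw UMI counts per gene and cell as filtered matrices (Cell Ranger 3.0.2 and GRCh38, per the labels). Cells were kept by the study's own limits for each library: 3000 to 7000 genes and 16000 to 50000 UMIs in LNCaP, 1500 to 5000 genes and 5000 to 25000 UMIs in the others, and a mitochondrial share under 15% (LNCaP, LNCaP-ENZ48), 17% (RES-A) or 20% (RES-B). This kept 1782 of 2358, 4315 of 4812, 4569 of 5156 and 4061 of 4907 barcodes. The lower limits make the kept LNCaP cells deeper by construction. Doublets were not called, and an alternative left out the 5% of cells with the most UMIs.

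UMIs were summed per library and gene and scaled to CPM. Levels have exact Poisson and ratios exact conditional binomial (Clopper-Pearson) 95% intervals, which cover counting error only. Where a library had 0 UMIs of a gene, 3 UMIs stood in as its floor. With 1 library per group no test was run. Coordinates came from GENCODE 44 by gene ID (33113 of 33538 found), and symbols are those of the matrices. The members, gene lists and alternatives were chosen with earlier results of these data known. Named were all 42 members, the 3 lowest and 3 highest unlisted measured genes of the window in RES-A, the 2 measured genes on each side of its ends, and the 2 lowest and 2 highest of each other list in RES-A and RES-B. Some genes of the marker and related-gene lists are not reported here. Scripts were tested on simulated data, and used Python 3.11.15, numpy 2.4.6, scipy 1.17.1, pandas 2.3.3, edgeR 4.0.16 (TMM) and DESeq2 1.42.0 (size factors), the last 2 for scaling alternatives only.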

Additional observations from a re-analysis of the deposited data

Results flagged for a closer look

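Members whose ratio to LNCaP was beyond 0.32 on the log2 scale in opposite directions in RES-A and RES-B, with both counting intervals clear of 0, were marked, and the difference was not tested since each line is 1 library. CBLN2 was higher in RES-A (3.24) and at 0 in RES-B (-7.22 at the floor), with a log2 ratio of RES-B to RES-A of -10.46 at a floor of 3 UMIs and an exact 95% upper limit of -10.16. The other 4 were lower in RES-A, the direction the stretch was picked for, and higher in RES-B. The share of all measured genes that meet this rule was not counted, so the number of marked members is a description only. SEC11C was at -0.66 and 0.88, with a ratio of RES-B to RES-A of 1.54. IER3IP1 was at -0.84 and 0.33 (ratio 1.17). SMAD7 was at -0.53 and 0.55 (ratio 1.09) and EPG5 at -0.37 and 0.38 (ratio 0.74), both with levels under 10 CPM. Of these 4, SEC11C alone stayed beyond 0.32 in both lines under all 10 alternatives for single genes. The RES-B ratio of IER3IP1 was 0.22 with TMM or when centred on all genes, 0.23 with size factors and just inside the limit with all deposited barcodes. That of EPG5 was 0.26 when centred, 0.27 with TMM and 0.28 with size factors, and its RES-A ratio was -0.28 in cells thinned to 5000 UMIs and -0.31 with all deposited barcodes. That of SMAD7 was 0.06 among cells of 16000 to 25000 UMIs.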

How the results depend on the processing

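The median log2 ratio kept its sign in RES-A against LNCaP under 15 alternatives, some of which changed the set of genes. It ran from -0.77 (members of at least 50 CPM) to -0.30, the latter for measured window genes that are not listed. In RES-B against RES-A it ran from 0.45, for those same unlisted genes, to 0.61. Both comparisons hold the RES-A values by which the stretch was picked. In RES-A against LNCaP-ENZ48 the median of the members was -0.52 with TMM and -0.51 with size factors, which shifted the median of all genes by -0.15 and -0.14. With a minimum of 1 CPM the window median was -0.30 in RES-A against LNCaP and -0.18 against LNCaP-ENZ48.

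Percentages of members past the fold moved most. They rest on few genes, and the percentages of all measured genes moved as well under some settings. No share of all genes stands beside those past 1.5-fold, at other minimum levels or for other sets of genes. In LNCaP-ENZ48 the percent lower was 29.0 among cells of 16000 to 25000 UMIs, 6.45 with TMM or size factors and 3.23 past 1.5-fold. Over all measured genes it was 16.0 among cells of that range, 7.21 with TMM and 6.97 with size factors. The percent higher was 9.68 with thinned cells, TMM or size factors, beside 5.79, 8.28 and 8.69 of all genes. It was 0 at 50 CPM, 3.23 past 1.5-fold and 3.45 without CBLN2 and NETO1. In RES-A the percent higher was 9.68 among cells of 16000 to 25000 UMIs or without cycling genes, beside 28.3 and 26.8 of all genes. It was 0 at 50 CPM, 3.23 past 1.5-fold and 3.45 without CBLN2 and NETO1. In RES-B the percent lower was 16.1 with thinned cells or past 1.5-fold, and the percent higher was 12.9 with TMM or centring, 12.5 at 50 CPM, 9.68 past 1.5-fold and 41.7 for unlisted window genes. In RES-B against RES-A the percent lower was 12.5 at 50 CPM and 3.45 without CBLN2 and NETO1, and the percent higher was 45.2 past 1.5-fold. In RES-A against LNCaP-ENZ48 the percent lower was 32.3 past 1.5-fold. The percent higher was 6.45 with TMM or size factors, beside 20.1 and 20.6 of all genes. It was 16.7 at 1 CPM, 0 at 50 CPM and 3.23 past 1.5-fold.

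Of 300 single ratios (60 genes in 5 comparisons), 26 changed sign among cells of 16000 to 25000 UMIs. Of the 178 that lay beyond 0.32 in all kept cells 4 did so, TCF4 in LNCaP-ENZ48 (0.034), FECH in RES-B (0.0166), ID1 in RES-B (0.24) and SMAD7 in RES-A against LNCaP-ENZ48 (0.15), and the cause was not tested. No paired analysis was possible because each group is 1 library. Depth limits the members under 10 CPM most.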
